A study of Mus musculus with 2 samples.

Results

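Day 6 cells of mouse eye organoids in which the forebrain gene Fezf2 was detected, and in which the eye gene Six6 and the dorsal forebrain genes Wnt8b and Rspo3 were not, were described across genes. They are called Fezf2 cells here. A Fezf2 cell held at least 1 unique molecular identifier (UMI) of Fezf2, 0 UMIs of Six6, Wnt8b and Rspo3 and fewer than 10 UMIs of the pluripotency gene Dppa5a. It also held at most 26000 UMIs, at most 5000 genes and 0.5% to 10% of UMIs from mitochondrial genes. The rule kept 800 cells. They were 13.6% of the 5876 day 6 cells within these limits (95% exact Clopper-Pearson interval 12.7% to 14.5%), out of 7446 day 6 barcodes and 16560 barcodes in the series. The comparison groups were the 2758 day 6 cells with a Six6 UMI and the 804 with a Wnt8b UMI, here Six6 cells and Wnt8b cells, of which 89 held both.

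The study grew organoids from mouse embryonic stem cells (ESCs) with a green fluorescent protein gene knocked in in the eye field gene Rax (genotype Rax-GFP knockin Het), and read single cells with droplet 3′ end counting on culture days 4 and 6. The labels give the cell type of both samples as retina progenitors. The genotype, cell line and culture were the same for all groups, since every group was cut from these libraries by its transcripts and not by a sort. For each day, material of 3 biological experiments went into 1 library, and its cells could not be assigned to experiments here. No test between groups was therefore possible, and all intervals cover counting error only.

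The anterior neural plate gives rise to the telencephalon, the eye field and the diencephalon. Fezf2 and the related Fezf1 encode zinc finger repressors of the early forebrain, whereas Rax, Six3, Six6, Pax6 and Lhx2 encode transcription factors of the eye field. Wnt8b and Rspo3 encode a Wnt ligand and a Wnt agonist of the dorsal forebrain, where Emx2 is also active.

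Depth was close between the groups. The 800 Fezf2 cells held 10696217 UMIs in all, with a median of 12689 UMIs and 3054 genes per cell. The medians were 12649.5 UMIs in Six6 cells and 13810 in Wnt8b cells. Median mitochondrial shares lay between 2.42% and 2.50% in these 3 groups. The day 4 and day 6 libraries shared 91 barcode sequences among their barcodes, and all comparisons but those with day 4 were within 1 library. Levels below are UMIs of a gene summed over the cells of a group, per 1000000 summed UMIs of that group (CPM), with an exact Poisson 95% interval. Genes with a mean level of 10 CPM or more were measured, and such a gene was called higher or lower when the groups differed by 1.5-fold or more and the exact 95% interval of the ratio left out 1.

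Detection of Fezf2 was sparse. Of the 800 cells, 413 held 1 Fezf2 UMI, 183 held 2, 107 held 3, and 6 held 9, the highest number. After thinning of every cell to 5000 UMIs, 469 of the 800 (58.6%) still held a Fezf2 UMI. The same share was 9.83% in Six6 cells and 28.2% in Wnt8b cells. In cells that should lack the gene it was 1.42% (8 of 564 cells with at least 10 Dppa5a UMIs, median depth 14405.5 UMIs) and 2.99% (2 of 67 cells with a UMI of the neural crest gene Sox10, median depth 15903 UMIs). Unthinned, these shares were 19.7%, 52.6%, 3.37% and 4.48%. At the edge of the rule, the 413 cells with exactly 1 Fezf2 UMI had an Acta2 level of 80.3 CPM and a Rax level of 82.2 CPM. The 1457 cells with none of the 4 genes had 40.8 CPM of Acta2 and 59.4 CPM of Rax. The 378 cells with Fezf2 and exactly 1 UMI of Six6, Wnt8b and Rspo3 together had 59.5 CPM of Acta2 and 77.4 CPM of Rax.

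Besides Fezf2, the marker genes given for these cells were Dlk1, Acta2, Tagln, Mest and Dmrta2. These had been chosen on the same cells, so their levels are a description. The label anterior forebrain-like was checked against further genes below. Otx2, Six3, Hesx1, Fezf1 and Lhx5 were present, whereas the ventral forebrain gene Nkx2-1 had 5 UMIs in all 800 cells, so the cells are called by their rule. The markers Dlk1, Acta2, Tagln, Mest and Dmrta2 lay above both comparison groups, and 3 of these 5 were called higher in each comparison. The genes of the label check did not share this order, since Otx2 was below both groups, Six3 below Six6 cells and Lhx5 below Wnt8b cells. The background was 1.41% of 6717 genes higher than in Six6 cells and 0.833% of 6725 higher than in Wnt8b cells. Fezf2 itself (chr14:12342094-12348189, minus strand, GRCm38) was at 148 CPM (141 to 156) in Fezf2 cells, 23.3 CPM in Six6 cells and 79.98 CPM in Wnt8b cells, an order that the rule set. Acta2, which encodes smooth muscle actin and lies at chr19:34241090-34255590 on the minus strand, was at 80.7 CPM (75.4 to 86.3), 46.9 CPM (44.7 to 49.1) and 25.5 CPM (22.7 to 28.6). It was therefore 1.72-fold higher than in Six6 cells and 3.17-fold higher than in Wnt8b cells, and the first ratio was 1.33 when the rule was applied to thinned cells.

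Tagln, which encodes the actin-binding protein transgelin, was at 26.5 CPM against 20.2 CPM in Six6 cells and 8.38 CPM in Wnt8b cells. It was called higher than in Wnt8b cells (3.16-fold, 2.50 to 4.01) and not than in Six6 cells (1.31-fold, 1.14 to 1.502). Dlk1, an imprinted gene for a Delta-like membrane protein, was at 20.2 CPM against 11.7 and 13.3 CPM. Its ratio of 1.52 over Wnt8b cells was 1.48 under the study's own cell filter. Dmrta2, a transcription factor gene of the dorsal telencephalon, was at 25.1 CPM against 13.1 CPM in Six6 cells and 21.7 CPM in Wnt8b cells, and the second ratio had an interval that held 1 (1.15-fold, 0.968 to 1.37). Mest, an imprinted gene of the hydrolase family, was at 2162 CPM against 1848 and 1812 CPM, ratios of 1.17 and 1.19.

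**Figure D1:**
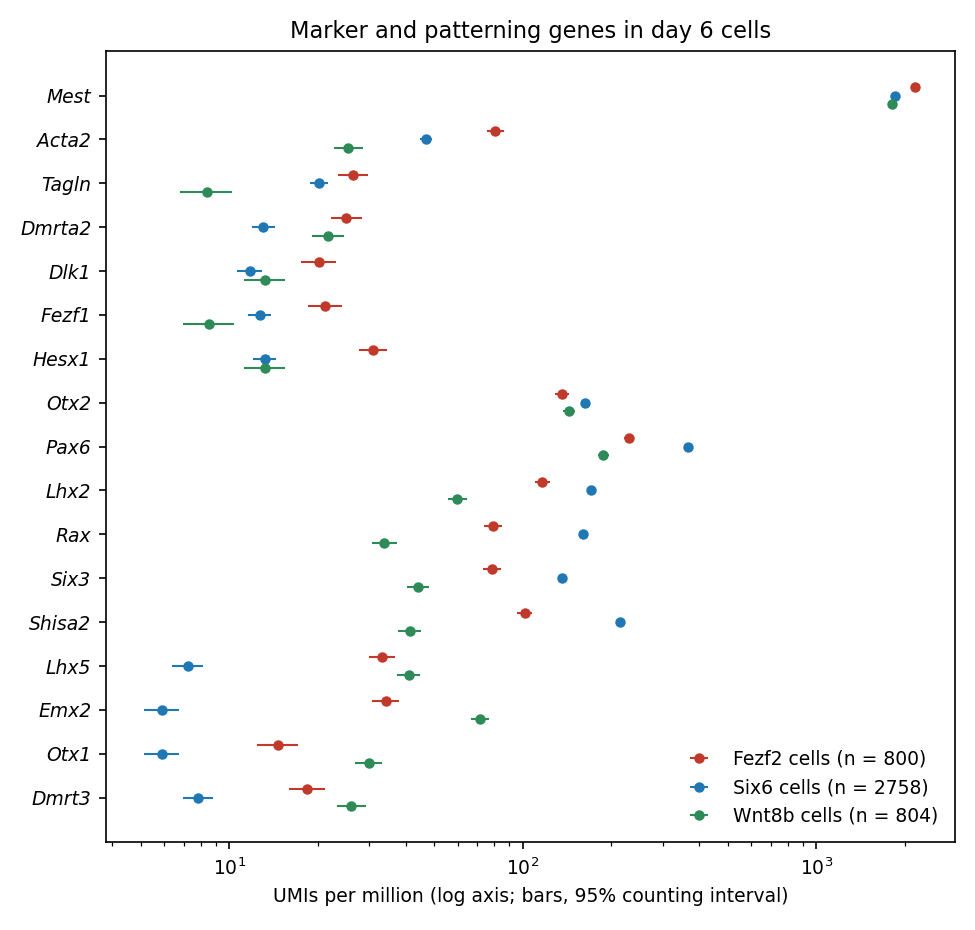
Level of 17 marker and patterning genes in the 800 Fezf2 cells, 2758 Six6 cells and 804 Wnt8b cells of day 6, in CPM on a log axis, with 95% counting intervals as bars. Acta2, Fezf1 and Hesx1 were highest in Fezf2 cells, whereas Rax, Six3, Lhx2 and Shisa2 lay between Six6 cells above and Wnt8b cells below, and Emx2 and Otx1 lay between them in the opposite order.

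Eye field genes mostly lay below Six6 cells and above Wnt8b cells, an order that 4 of 6 measured factors had. By the 1.5-fold rule 3 of the 6 were lower than in Six6 cells and 1, Hesx1, was higher. The median log2 ratio was -0.61, where 1.12% of all genes were lower and the median of all genes was -0.04. Against Wnt8b cells 4 of 6 were higher, where 0.833% of all genes were, with a median of 0.90, against -0.03 for all genes. Rax, the gene that carries the reporter, was at 79.2 CPM (73.9 to 84.7) in Fezf2 cells, 160 CPM (156 to 164) in Six6 cells and 33.8 CPM (30.5 to 37.3) in Wnt8b cells. After thinning, a Rax UMI was found in 28.1% of Fezf2 cells, 51.1% of Six6 cells and 12.2% of Wnt8b cells, with 3.90% in Dppa5a cells (unthinned 50%, 78.0%, 25.7% and 9.22%). Six3, which encodes a homeodomain repressor of Wnt genes, was at 78.7 CPM in Fezf2 cells, 136 CPM in Six6 cells and 44.1 CPM in Wnt8b cells. The ratios of Six3 were 0.579 (0.537 to 0.623) and 1.78 (1.60 to 1.99). Pax6, which encodes a paired domain factor of eye and forebrain, was at 230 CPM against 365 CPM in Six6 cells, a ratio of 0.629, and 188 CPM in Wnt8b cells, where its ratio of 1.22 was under the limit. Lhx2, a LIM homeodomain gene needed for the optic vesicle, was at 117, 170 and 59.9 CPM, called higher than in Wnt8b cells (1.95-fold) and within 1.5-fold of Six6 cells (0.686). Shisa2, whose product holds back Wnt and FGF receptors, was at 102, 214 and 41.3 CPM. The detection of Six6 was part of the rule, and genes that share cells with Six6 are not independent of it.

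Factors of the anterior forebrain list were split. Of 14 measured, 8 were higher than in Six6 cells and 2 were lower, and the median log2 ratio was 0.78. Of 15 measured against Wnt8b cells, 2 were higher and 2 lower, with a median of 0.11 that was -0.03 among cells of at most 20000 UMIs. The 8 higher than in Six6 cells included Dmrta2, a marker chosen on these same cells. Of all genes, 1.41% were higher and 1.12% lower than in Six6 cells, and 0.833% each than in Wnt8b cells. Fezf1 and Hesx1 were called higher than in both groups. Fezf1 was at 21.2 CPM (18.6 to 24.2) against 12.7 CPM in Six6 cells and 8.55 CPM in Wnt8b cells. Hesx1, which encodes an early anterior repressor, was at 30.9 CPM (27.6 to 34.4) against 13.2 and 13.3 CPM, ratios of 2.34 and 2.33. The intervals of the comparison groups overlapped.

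Emx2, Otx1, Dmrt3 and Lhx5, which encode transcription factors with roles in the dorsal and medial telencephalon, were higher than in Six6 cells. Emx2 was at 34.1 CPM (30.7 to 37.8) in Fezf2 cells, 5.90 CPM in Six6 cells and 71.5 CPM in Wnt8b cells, 5.78-fold above the former and 0.477 times the latter. Otx1 had the same order, at 14.7, 5.90 and 29.9 CPM. Dmrt3 was at 18.4, 7.83 and 26.1 CPM, where the ratio of 0.706 over Wnt8b cells was within the limit. Lhx5 was at 33.2 CPM (29.8 to 36.8) against 7.24 and 41.0 CPM, 4.58-fold above Six6 cells and 0.810 times the level in Wnt8b cells. Otx2, an anterior gene of forebrain and midbrain, was at 136 CPM against 163 and 144 CPM. The detection of Wnt8b and Rspo3 was also part of the rule, and genes that share cells with them are not independent of it.

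Across all genes few passed the limit. Of 6717 genes measured against Six6 cells, 95 were higher (1.41%) and 75 lower (1.12%), and of 6725 measured against Wnt8b cells, 56 were higher and 56 lower (0.833% each). Of 6610 genes measured in both comparisons, 16 were higher than in both groups and 2 were lower. The 16 held the marker genes Acta2 and Dlk1, the forebrain genes Fezf1 and Hesx1, the calponin gene Cnn2, the hypoxia responsive gene Bnip3 and genes of respiratory chain subunits and their paralogs, Cox4i2 and Ndufa4l2. Thbs1, Cxxc4, Tnnt1, Trim25, Cthrc1 and Prelid2 were also among them. Cox4i2 was at 20.8 CPM against 9.25 CPM in Six6 cells and 8.98 CPM in Wnt8b cells. Ndufa4l2 was at 19.4 CPM against 4.64 and 11.3 CPM. Thbs1, which encodes the matrix protein thrombospondin, was at 18.2 CPM against 7.27 and 8.55 CPM. Genes lower than in both were Efnb3, a transmembrane ephrin gene, and Cdon, a Hedgehog co-receptor gene. A further 8 genes were lower than in Six6 cells and higher than in Wnt8b cells, among them Rax, Six3 and Shisa2, and 5 had the opposite order, Emx2, Otx1, Cntnap2, Igdcc3 and Vim.

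**Figure D2:**
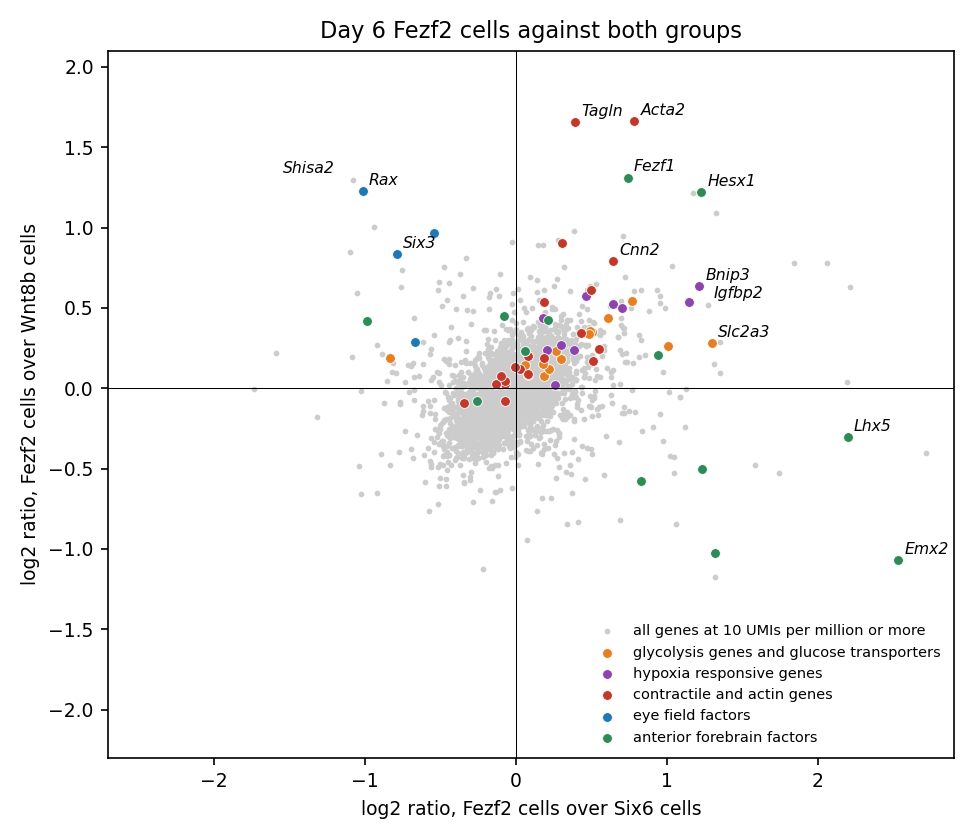
Log2 ratio of each gene in Fezf2 cells over Six6 cells (x axis) and over Wnt8b cells (y axis), for all genes measured in both comparisons, with members of 5 gene lists in colour. Hypoxia responsive genes lay in the upper right quadrant, eye field factors mostly in the upper left and Emx2 and Lhx5 in the lower right. The axes share the Fezf2 cells, so their joint spread is not read as a relation.

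Glucose transporter, glycolysis and hypoxia responsive genes were mostly highest in Fezf2 cells. Cells take up glucose through the transporters GLUT1 and GLUT3, encoded by Slc2a1 and Slc2a3, glycolysis turns it into pyruvate, lactate dehydrogenase turns pyruvate into lactate, and the transporter MCT4, encoded by Slc16a3, exports lactate. Of 15 measured genes of the glycolysis list, 14 were above both groups in level, and of 10 measured hypoxia responsive genes, 10 were. The background was 25% of 6832 genes above both, 30.4% between and 44.6% below. Called higher were 1.41% of all genes against Six6 cells and 0.833% against Wnt8b cells. By the 1.5-fold rule, 4 of 15 glycolysis genes were higher and 1 was lower than in Six6 cells (median log2 ratio 0.30), and 0 were higher or lower than in Wnt8b cells (median 0.23). For the hypoxia list 4 of 10 were higher than in Six6 cells (median 0.42) and 1 of 10 than in Wnt8b cells (median 0.47). The differences were thus mostly of small size, and the direction of the 4 medians was kept under every alternative tried.

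Slc2a3 was at 305 CPM (294 to 315) in Fezf2 cells, 124 CPM (120 to 127) in Six6 cells and 250 CPM (241 to 260) in Wnt8b cells, which is 2.46-fold and 1.22-fold higher. Slc2a1 was at 504, 250.7 and 420 CPM, ratios of 2.01 and 1.20. Both transporter genes had their lowest level in Six6 cells. Slc16a3 was at 121, 74.3 and 85.3 CPM. Aldoa, which encodes aldolase, was at 1327, 868 and 981 CPM, and Pgk1, which encodes phosphoglycerate kinase, at 61.2, 35.9 and 42.1 CPM. Ldha, which encodes the lactate-forming subunit of lactate dehydrogenase, was at 2268, 1621 and 1796 CPM and its ratios of 1.40 and 1.26 were under the limit. Ldhb, which encodes the other main subunit, was the gene of the list that was lower than in Six6 cells, at 141 CPM against 252 CPM (0.559) and 124 CPM in Wnt8b cells. Gapdh, another gene of glycolysis, had a ratio of 1.06 in each comparison.

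Among hypoxia responsive genes, Bnip3, which encodes a receptor for mitophagy, was at 106 CPM (99.6 to 112) against 45.5 and 68.1 CPM, 2.32-fold and 1.55-fold higher. Ddit4, which encodes an inhibitor of mTORC1, was at 44.1, 19.9 and 30.5 CPM. Egln1, which encodes an oxygen-sensing prolyl hydroxylase, was at 25.7, 16.5 and 17.9 CPM, and its ratio of 1.56 over Six6 cells was 1.45 for cells with at least 2 Fezf2 UMIs. Vegfa, which encodes a vascular growth factor, was at 18.0, 15.9 and 13.3 CPM and was not called. Igfbp2, which encodes a binding protein of insulin-like growth factors, had the second highest called ratio to Six6 cells among genes at 50 CPM or more, after Slc2a3, at 878 CPM against 364 CPM (2.41-fold) and 612 CPM in Wnt8b cells. Cells with at least 10 Dppa5a UMIs held Slc2a3 in 83.7% of thinned cells and Bnip3 in 64.4%, against 68.9% and 34.9% of Fezf2 cells (unthinned 97.5%, 84.9%, 87.1% and 59.4%). Fezf2 cells were thus not the cells of day 6 in which these genes were found most often.

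The promoters of the main genes were read from the RefSeq table for GRCm38.p6 and searched on both strands for ACGTG, the core of the hypoxia response element bound by HIF factors. Within 250 bases before and 50 after the start site, 19.6% of 32851 promoters and, by symbol, 21.8% of 27025 genes held it. It was found for 13 of 15 hypoxia list genes with a promoter in the table and 11 of 18 glycolysis list genes. These lists hold well-studied HIF target genes, so this share is a property of the lists. The 150 bases before the start site are shown for 3 genes that were called higher than in Six6 cells, with ACGTG or its reverse complement in capitals: Slc2a1 (chr4:119108595-119108744, plus strand), Bnip3 (chr7:138909507-138909656, minus strand) and Slc16a3 (chr11:120948917-120949066, plus strand).
Slc2a1: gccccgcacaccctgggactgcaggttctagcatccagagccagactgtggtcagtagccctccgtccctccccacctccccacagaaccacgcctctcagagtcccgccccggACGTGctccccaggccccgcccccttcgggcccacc
Bnip3: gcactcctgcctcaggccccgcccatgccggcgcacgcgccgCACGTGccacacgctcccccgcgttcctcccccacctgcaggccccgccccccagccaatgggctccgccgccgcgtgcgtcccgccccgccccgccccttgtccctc
Slc16a3: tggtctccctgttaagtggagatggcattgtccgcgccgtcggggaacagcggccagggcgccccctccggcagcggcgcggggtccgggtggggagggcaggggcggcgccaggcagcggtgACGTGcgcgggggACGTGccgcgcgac
The match began 36 bases before the start site in Slc2a1. In Bnip3 the 2 matches overlap on opposite strands and span 108 to 103 bases before it, and in Slc16a3 the 2 matches began 27 and 14 bases before it. A match describes the letters and is not a bound site.

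Contractile and actin genes were measured for 20 of 27 list members. Acta2 and Cnn2 were the 2 that were higher than in Six6 cells, 0 were lower, and the median log2 ratio was 0.13. Against Wnt8b cells 5 were higher and 0 lower, with a median of 0.18. These were Acta2, Tagln, Cnn2, Tpm1 and Myl9. Acta2 and Tagln are markers chosen on these same cells, so their part in these counts is a description. Of all genes, 1.41% were higher than in Six6 cells and 0.833% than in Wnt8b cells. Cnn2, which encodes calponin 2, was at 63.7 CPM (59.0 to 68.6) against 40.7 and 36.8 CPM, 1.56-fold and 1.73-fold higher. Tpm1, which encodes a tropomyosin that lies along actin filaments, was at 469 CPM (457 to 483) against 332 and 308 CPM, and its ratio of 1.53 over Wnt8b cells was 1.496 among cells of at most 20000 UMIs. Myl9, which encodes a myosin regulatory light chain, was at 49.0, 39.7 and 26.2 CPM. Of the list of genes responsive to SRF, YAP and TGF-beta, 2 of 7 were higher than in Six6 cells, Thbs1 (2.51-fold) and the cell cycle inhibitor gene Cdkn1a (1.98-fold), and 1 of 7, Thbs1, was higher than in Wnt8b cells. Of the apical constriction list, 0 of 12 were called against Six6 cells and 0 of 11 against Wnt8b cells, which is near the share of all genes.

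Acta2 was concentrated in few cells of each group. After thinning, an Acta2 UMI was found in 17.6% of Fezf2 cells (141 of 800), 11.6% of Six6 cells, 9.20% of Wnt8b cells and 1.95% of Dppa5a cells, while 0 of 67 Sox10 cells held one, which allows a share of up to 5.36% (unthinned 29.1%, 20.7%, 17.7%, 3.55% and 1.49%). The tenth of Fezf2 cells with the most Acta2 held 80.6% of its thinned UMIs, up to 31 in 1 cell, and the variance over cells was 6.87 times the mean. The same share was 92.8% in Six6 cells and 100% in Wnt8b cells, where fewer cells held Acta2, and the variance was 3.52 and 1.54 times the mean. In contrast, 76.4% of Fezf2 cells held a thinned Tpm1 UMI. Among Fezf2 cells with Acta2, 16.3% also held Tagln (10.6% to 23.5%) and 37.6% held Cnn2 (29.6% to 46.1%). Among those without Acta2 the shares were 4.40% (2.97% to 6.26%) and 21.2% (18.2% to 24.6%). Rax was found in 31.9% and 27.3% of the same cells and Emx2 in 13.5% and 14.1%, with intervals that overlapped. Emx2 was found in 12.0% of Fezf2 cells with Rax and 14.8% of those without, with intervals that overlapped, and at this depth no difference was detectable.

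Defining genes of muscle and mesenchyme were near 0 in Fezf2 cells. The mural and mesenchyme list had 1 of 17 genes at the measured level, the collagen gene Col1a2, at 17.2 CPM against 10.4 and 14.8 CPM, which was called higher than in Six6 cells (1.66-fold, and 1.44-fold for cells with at least 2 Fezf2 UMIs). Its summed level was 31.5 CPM in Fezf2 cells, 16.1 CPM in Six6 cells and 30.03 CPM in Wnt8b cells, and 4 of its genes had 0 UMIs. Of its defining markers, the smooth muscle myosin gene Myh11 had 0 UMIs in the 800 cells, and the pericyte receptor gene Pdgfrb had 19 UMIs (1.78 CPM). Of the neural crest list Sox10 had 0 UMIs, and its 1 measured gene, the transcription factor gene Sox9, was higher than in Six6 cells (20.7 against 8.10 CPM, 2.55-fold) and at 19.3 CPM in Wnt8b cells. The summed level of the list was 30.9 CPM in Fezf2 cells, 16.2 CPM in Six6 cells and 31.5 CPM in Wnt8b cells.

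The promoter of Cnn2 was also searched for the CArG box, the motif bound by serum response factor, which acts on contractile genes. The box was in 1.63% of all promoters (1.81% of symbols) and in 7 of 24 contractile list genes with a promoter in the table. No strict match was in the windows of Acta2 and Tpm1, which says only that the exact letters were absent there. The 150 bases before the start site of Cnn2 (chr10:79988450-79988599, plus strand) are shown because it is a contractile gene higher than in both groups, with the box, 56 to 47 bases before the start, in capitals.
Cnn2: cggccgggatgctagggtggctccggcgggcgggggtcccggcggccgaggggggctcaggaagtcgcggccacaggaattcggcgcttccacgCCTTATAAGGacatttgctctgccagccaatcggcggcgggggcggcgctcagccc

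Genes of the Wnt pathway were called in both directions. Of 11 measured against Six6 cells, the antagonist genes Dkk1 and Frzb were higher, and Sfrp2, Shisa2 and the receptor gene Fzd5 were lower. Of 12 against Wnt8b cells, Shisa2 and the repressor gene Tcf7l1 were higher, and Axin2, Nkd1 and Wnt7b were lower. The share of all genes was 1.41% higher and 1.12% lower than in Six6 cells, and 0.833% each than in Wnt8b cells. Wls, which is outside the list and encodes the carrier for secretion of Wnt ligands, was at 107 CPM in Fezf2 cells, 51.9 CPM in Six6 cells and 144 CPM in Wnt8b cells. Dkk1, which encodes a secreted Wnt antagonist, was at 29.9 CPM (26.7 to 33.4), 6.54 CPM and 29.2 CPM, 4.57-fold above Six6 cells and level with Wnt8b cells (1.03, 0.878 to 1.20). Sfrp2, another secreted antagonist, was below Six6 cells, at 80.3 CPM against 165 CPM (0.486), and at 112 CPM in Wnt8b cells (0.715). Axin2, a feedback target of the canonical pathway, was at 8.88 CPM against 23.1 CPM in Wnt8b cells (0.385), and Wnt7b at 12.7 CPM against 37.4 CPM (0.340). The rule left out cells with Wnt8b or Rspo3 and the comparison cells were chosen by Wnt8b, so these lower values are not independent of the selection.

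Of 6 measured Hedgehog genes the co-receptor genes Cdon and Gas1 were lower than in Six6 cells and 0 were higher. For this and the next lists, the share of all genes was 1.41% higher and 1.12% lower than in Six6 cells. It was 0.833% each than in Wnt8b cells. Gas1 was at 30.1 CPM against 51.5 CPM in Six6 cells (0.584) and 39.7 CPM in Wnt8b cells (0.758). Cdon was at 7.85 CPM against 16.0 and 12.4 CPM, and its ratio of 0.633 over Wnt8b cells was 0.719 for cells with at least 2 Fezf2 UMIs. In the Notch pathway the ligand gene Jag1 was 2.49-fold higher than in Six6 cells (21.6 against 8.69 CPM) and the target gene Hes1 lower (293 against 449 CPM, 0.653), a ratio that moved to 0.672 after centring on the median gene and was then within the limit. No gene of the Notch list was called against Wnt8b cells (0 of 8). Of the BMP list 0 of 6 were higher in either comparison, and 1 of 6 was lower in each. Id2 was at 85.1 CPM against 156 CPM in Six6 cells (0.545). Id3, a BMP target, was at 492 CPM against 802.3 CPM in Wnt8b cells (0.614). Epha7, an ephrin receptor gene, was at 44.9, 13.4 and 64.6 CPM, so that it followed the order of Emx2, and its ligand gene Efna5 was lower than in Six6 cells (72.0 against 130 CPM). Nr2f1, which encodes a nuclear receptor of the optic vesicle and cortex, was lower than in Six6 cells, at 39.5 against 78.5 CPM.

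No gene of the S phase list or of the G2 and M phase list was called. Of 40 measured S phase genes and 52 G2 and M phase genes, 0 were higher or lower than in Six6 cells, with medians of -0.08 and -0.12, and 0 of 40 and 0 of 51 than in Wnt8b cells. This is near the share of all genes, which was 1.41% higher and 1.12% lower than in Six6 cells and 0.833% each than in Wnt8b cells. In level, 12 of 40 S phase genes and 27 of 52 G2 and M phase genes were below both groups, where 44.6% of all genes were. Of the immediate early stress genes 0 of 7 were called in each comparison, and 4 of 7 were above both groups in level. Of the p53 and apoptosis list 1 of 10 was higher than in Six6 cells and 0 than in Wnt8b cells, and 8 of 10 were above both groups in level. Of the integrated stress response list 1 of 5 was higher than in Six6 cells and 0 of 6 than in Wnt8b cells, and 4 of 6 were above both in level, where 25% of all genes were. Genes of other regions were scarce in Fezf2, Six6 and Wnt8b cells alike. No gene of the midbrain and hindbrain list, of the hypothalamic list or of the pluripotency list reached the measured level against either group. Their summed levels were 12.7, 1.22 and 34.6 CPM in Fezf2 cells. They were 11.0, 0.938 and 26.0 CPM in Six6 cells and 34.4, 0.684 and 31.8 CPM in Wnt8b cells. The pluripotency list holds Dppa5a, which the cell limits capped in every group. Neuron genes were present at low level, with Stmn2 at 54.9 CPM against 27.2 CPM in Six6 cells and 55.9 CPM in Wnt8b cells, and Tubb3 at 39.0, 23.7 and 42.3 CPM. The keratin genes Krt8 and Krt18, of simple epithelia, were at 20.01 and 68.2 CPM, 2.56-fold and 1.97-fold above Six6 cells and within the limit of Wnt8b cells. Of the dorsal list, Zic1 was at 2.898 CPM against 30.7 CPM in Wnt8b cells, which is not independent of the use of Wnt8b and Rspo3 in the rule.

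The 1457 cells without the 4 genes had more transcripts of other lineages than Fezf2 cells. Summed levels were 110 against 30.9 CPM for the neural crest list, 209 against 48.8 CPM for the primitive endoderm list and 120 against 34.6 CPM for the pluripotency list. The lack of the 4 genes defined this group, so this order is not independent of the rule. In the clustering described below, clusters 6, 7 and 8 held 154, 153 and 90 of the 1457 cells. The comparisons that follow are thus with a mixture of cells. Against these cells 35 of 6788 genes were higher (0.516%) and 163 lower (2.4%). Of 15 anterior forebrain factors 6 were higher and 1 was lower. Acta2 was at 80.7 against 40.8 CPM, Igfbp2 at 878 against 451 CPM, and Slc2a1 at 504 against 308 CPM. Rax at 79.2 against 59.4 CPM and Six3 at 78.7 against 53.4 CPM were within the limit. Of the cadherin, basement membrane and filament list 11 of 18 were lower, and the keratin gene Krt8 was at 20.01 against 44.2 CPM.

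The same genes were then followed over cells grouped by what was detected with Fezf2. Among cells with Six6, and among those with Wnt8b, the ones that also held Fezf2 had more Acta2. The 498 cells with Fezf2 and Six6, and without Wnt8b and Rspo3, had 74.2 CPM of Acta2 (68.0 to 80.8), and the 2152 with Six6 and none of the other 3 genes had 40.7 CPM (38.4 to 43.1). The 384 cells with Fezf2 and Wnt8b, and without Six6, had 33.9 CPM (29.3 to 39.0), and the 331 with Wnt8b and neither Fezf2 nor Six6 had 14.0 CPM (10.8 to 18.0). Hesx1 was at 21.7 against 10.9 CPM and at 17.3 against 7.47 CPM in the same pairs. Bnip3 was at 79.8 against 35.2 CPM and at 77.4 against 55.2 CPM, and Slc2a3 at 193 against 99.9 CPM and at 292 against 209 CPM. Rax moved the other way among Six6 cells, 141 CPM with Fezf2 against 169 CPM without, and Emx2 was higher with Fezf2 in both, 9.25 against 3.53 CPM and 90.7 against 58.8 CPM. Median depth was higher in the cells with Fezf2, at 13536 against 12420 UMIs with Six6 and 14246 against 12800 UMIs with Wnt8b, and its part in these differences was not tested.

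Within Fezf2 cells the levels of Bnip3, Igfbp2 and Hesx1 were higher in cells with more Fezf2 UMIs. Bnip3 was at 88.2 CPM (80.3 to 96.7) in cells with 1 Fezf2 UMI, 104 CPM (91.8 to 117) with 2 and 137 CPM (124 to 151) with 3 or more. Igfbp2 was at 771, 898 and 1049 CPM and Hesx1 at 22.1, 34.3 and 43.2 CPM in these classes. Acta2 was at 80.3, 89.3 and 74.1 CPM and Rax at 82.2, 74.1 and 78.1 CPM, with intervals that overlapped. The median depth of the 3 classes was 11997, 12875 and 13951 UMIs, and its part in these differences was not tested.

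**Figure D3:**
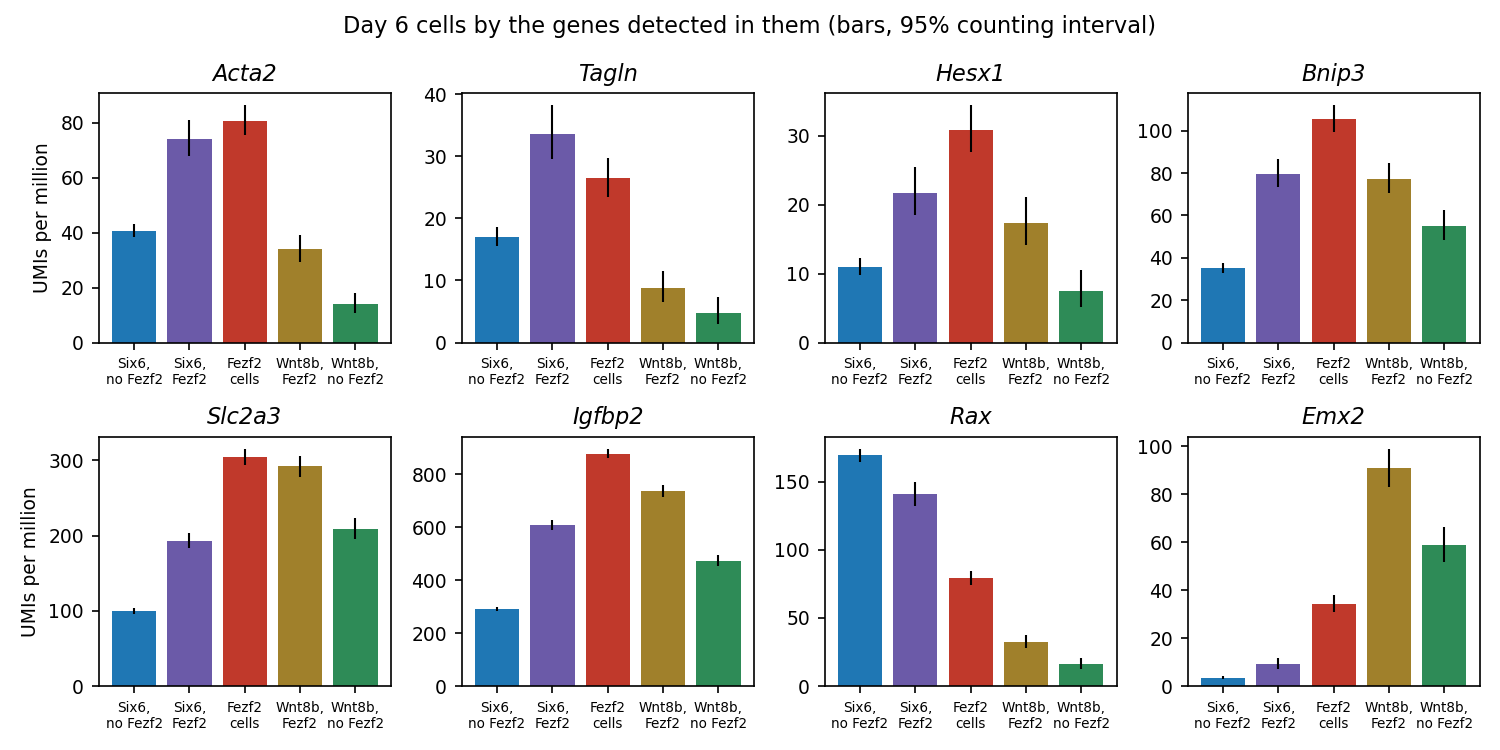
Level of 8 genes, in CPM with 95% counting intervals, in day 6 cells grouped by detection of Six6, Fezf2 and Wnt8b, the red bar being the Fezf2 cells. Acta2, Hesx1, Bnip3, Slc2a3 and Igfbp2 were higher in cells with Fezf2 than without it on either side, while Rax was highest on the Six6 side and Emx2 on the Wnt8b side.

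To place Fezf2 cells among all day 6 cells, the 5876 cells were clustered with the genes of the rule and the 6 markers left out of the variable genes. Fezf2 cells did not form a cluster of their own. Of 9 clusters, cluster 4 held 30.6% of them and cluster 0 held 22.6%, together 426 cells (53.3%), against 24.3% of all day 6 cells. Fezf2 cells made up 28.7% of cluster 4 (25.7% to 31.9%) and 31.5% of cluster 0 (27.7% to 35.5%). The clusters 1, 2 and 3, which held 28.0%, 29.5% and 27.0% of Six6 cells, took 36% of the Fezf2 cells against 55.5% of all cells. Cluster 5, led by Rspo3, Wnt8b and Zic1, held 9.50%, and the clusters 6, 7 and 8, led by Upp1, by Fam212a and by Srgn, held 10 Fezf2 cells in all. At a higher resolution there were 16 clusters, and the 4 that held the most Fezf2 cells took 21.4%, 18.5%, 15.6% and 15.3% of them. Ndufa4l2, Trh, Acta2 and Hesx1 were among the leading genes of cluster 0, and Dmrta2, Thbs1, Sox21 and Slc2a3 among those of cluster 4. As these genes were found on the same cells, they describe the clusters and test nothing.

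**Figure D4:**
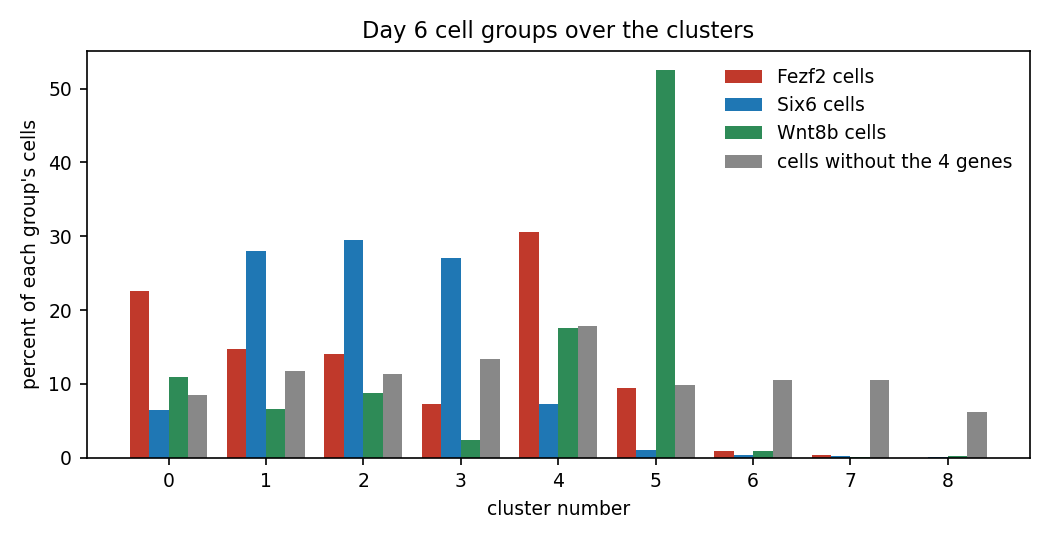
Percent of the Fezf2 cells, Six6 cells, Wnt8b cells and cells without the 4 genes that fell into each of 9 clusters of day 6 cells. Fezf2 cells were most frequent in the clusters 0 and 4 (22.6% and 30.6%), Six6 cells in the clusters 1 to 3 and Wnt8b cells in cluster 5 (52.5%).

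The 181 Fezf2 cells of cluster 0 and the 245 of cluster 4 had been set apart by the clustering, so their differences are a description. Of 6726 genes 847 were higher in the cluster 0 cells (12.6%) and 615 lower (9.14%). Fezf2 itself was at 179 CPM (163 to 197) in the cluster 0 cells and 151 CPM (137 to 166) in the cluster 4 cells. Of 16 glycolysis genes 11 were higher in cluster 0 and 0 lower (median log2 ratio 0.92), and of 11 hypoxia responsive genes 8 and 0 (median 0.74). Slc2a1 was at 804 against 334 CPM and Aldoa at 1942 against 1143 CPM, whereas Slc2a3 was at 449 against 381 CPM. Of 20 contractile genes 8 were higher and 3 lower, with Acta2 at 152 against 41.0 CPM (3.70-fold) and Tpm1 at 699 against 396 CPM. Over all 574 cells of cluster 0, of which 180 were Six6 cells, Acta2 was at 158 CPM. Its level there was thus a trait of the cluster and not particular to its Fezf2 cells. Hesx1 was at 69.4 against 16.5 CPM and Rax at 115 against 65.6 CPM. Hes5, a Notch target and marker of neural progenitors, was lower in cluster 0, at 56.96 against 176 CPM. Median depth was 13250 UMIs in the cluster 0 cells and 10999 in the cluster 4 cells. Acta2 was also high in the 112 Fezf2 cells of cluster 2, which was led by mitotic genes, at 131 CPM, and Tagln was at 44.8 CPM there. These were deep cells, with a median of 17913.5 UMIs.

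On day 4 the same rule found 346 of 6228 cells within the limits (5.56%, 5% to 6.15%), with 66 Six6 cells and 21 Wnt8b cells in that library. Day and library cannot be told apart. On day 6, 760 of 6635 measured genes were higher (11.5%) and 423 lower (6.38%). The 5 markers other than Fezf2 were all higher on day 6. Acta2 had 3 UMIs in the day 4 cells (0.632 CPM) against 80.7 CPM on day 6, a ratio of 128 (43.5 to 620). Dlk1 was at 1.69 and 20.2 CPM, Dmrta2 at 1.90 and 25.1 CPM, Tagln at 4.22 and 26.5 CPM and Mest at 594 and 2162 CPM. Of the contractile list 9 of 20 were higher on day 6 and 0 lower.

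The eye genes Pax6, Rax and Lhx2 were at 15.4, 17.3 and 21.7 CPM on day 4 and at 230, 79.2 and 117 CPM on day 6, whereas Six3 was at 99.5 and 78.7 CPM. Hesx1 was lower on day 6, at 138 CPM and then 30.9 CPM (0.224, 0.195 to 0.256), and Lhx5 was at 46.2 and 33.2 CPM, within the limit. The pluripotency gene Pou5f1 had a level of 232 CPM before and 4.58 CPM after. The metallothionein gene Mt1 was at 1091 and 228 CPM. Of 15 glycolysis genes 2 were higher and 1 lower on day 6, with Ldha at 2174 and 2268 CPM and Slc2a3 at 243 and 305 CPM, and both ratios were within the limit.

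**Figure D5:**
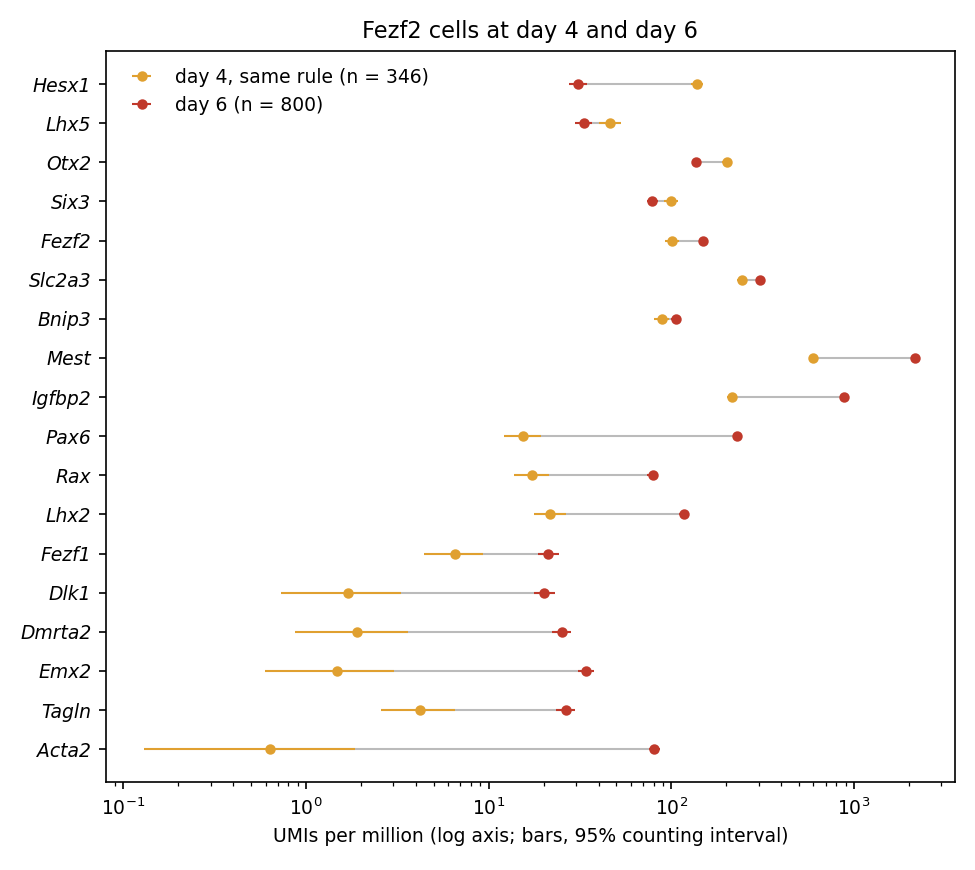
Level of 18 genes in Fezf2 cells of day 4 (346 cells) and day 6 (800 cells), in CPM on a log axis with 95% counting intervals. Hesx1 was lower on day 6 (138 and 30.9 CPM), Slc2a3, Bnip3 and Six3 were within 1.5-fold, and Acta2 (0.632 and 80.7 CPM), Emx2 (1.48 and 34.1 CPM) and Pax6 (15.4 and 230 CPM) were higher on day 6.

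On day 4, Fezf2 cells differed from the 66 Six6 cells in 167 genes that were higher (2.54%) and 285 that were lower (4.33%) of 6583 measured. Lhx5 (46.2 against 21.7 CPM), Hesx1 (138 against 43.4 CPM) and Epha7 (45.5 against 22.8 CPM) were higher than in Six6 cells on both days. Pax6 (15.4 against 89.1 CPM) and Nr2f1 (1.05 against 21.7 CPM) were lower on both.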

How the data were processed

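The series holds 1 droplet library of eye organoid cells for each of 2 culture days (Chromium single cell 3′ chemistry). The authors deposited matrices of UMI counts per gene and cell barcode, not normalized, aligned to mm10, for 27998 genes, of which 56 symbols stand on more than 1 line and were left out of calls. Cell Ranger 2.0.1 and Seurat 2.3.4 stand in the processing notes of the submitters, and later versions of both in the study's methods. Members and gene lists were chosen with earlier results of these data known.

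Cells were selected by the rule, and UMIs were summed over each group's cells (CPM; exact Poisson, conditional binomial and Clopper-Pearson 95% intervals, for counting error only). The fold calls were tried on simulated group totals that held counting error only, with changes larger than the 1.5-fold limit. Spread between cells was not simulated, so this says nothing on calls near the limit or on genes that vary between cells. Named genes were the 6 markers, 10 patterning genes fixed by name, the 10 highest and 10 lowest called ratios at 50 CPM or more in each comparison, and up to 4 genes of each of 33 lists with the largest absolute log2 ratio. Genes named outside this rule, such as Ldha, Gapdh, Vegfa, Pou5f1, Cox4i2, Ndufa4l2, Efnb3, Frzb, Tcf7l1, Nkx2-1, Myh11, Pdgfrb, Sox10 and the leading genes of clusters, were chosen after their values were seen. So were the comparisons other than those with Six6 and Wnt8b cells, the genes higher than in both groups, the day 4 genes given beside Six6 cells, and the motifs.

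Doublets were sought with Scrublet, which marked 6 of 6440 cells (0.0932%). A caller that marks so few has not worked. Doublets therefore remain among the cells, and leaving out the 5% of cells with the highest scores (37 Fezf2 cells) was an alternative. Free RNA was not removed. Clustering used 2000 variable genes, 30 components, 20 neighbours and Leiden resolution 0.5. Promoter sequences came from RefSeq (GRCm38.p6) and gene positions from GENCODE. Tagln, Slc2a3, Ndufa4l2 and Cox4i2 were not matched in the promoter table. Alternatives changed the cell limits, the Fezf2 minimum, depth, comparison cells, totals, weighting, centring, the CPM filter and the fold limit. Some genes that the named-gene rule or the lists hold are not reported here. Tools were Python 3.11.15, numpy 2.4.6, scipy 1.17.1, pandas 2.3.3, scanpy 1.11.5 and matplotlib 3.10.9.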

Additional observations from a re-analysis of the deposited data

Results flagged for a closer look

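In 10 named genes, Fezf2 cells lay on opposite sides of Six6 cells on the 2 days, past the 1.5-fold limit each time. The difference between the days was not tested, since each day is 1 library and day 4 had 66 Six6 cells. Acta2 was at a ratio of 0.0221 on day 4 (0.00428 to 0.0726) and 1.72 on day 6. The day 4 value rests on 3 UMIs in 346 Fezf2 cells and 25 UMIs in Six6 cells, 12 of them in 1 cell. Other genes that were lower than in Six6 cells on day 4 and higher on day 6 were Cnn2 (0.417 and 1.56), Igfbp2 (0.648 and 2.41), the imprinted RNA H19 (0.473 and 1.84), Il17rd, which encodes an inhibitor of FGF signalling (0.461 and 2.12), the progenitor gene Sox21 (0.220 and 1.69) and Pgk1 (0.656 and 1.70). Genes with the opposite order were Six3 (1.89 and 0.579), Shisa2 (1.81 and 0.474) and the Wnt receptor gene Fzd5 (1.65 and 0.368).

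Fezf2 was also found in day 6 barcodes outside the limits of the rule, which no comparison used. Of 792 barcodes over 26000 UMIs, 100 met the gene conditions of the rule and held 269 Fezf2 UMIs. Barcodes with at least 10 Dppa5a UMIs held 76 Fezf2 UMIs in 45 barcodes, and those with under 0.5% mitochondrial UMIs held 48 in 25.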

How the results depend on the processing

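No paired analysis was possible because each day was 1 library and the groups were cells of the same library. The share of day 6 cells was 6.59% with at least 2 Fezf2 UMIs and 11.1% when cells were thinned to 5000 UMIs before the rule. The counts of genes higher and lower than in Six6 cells (95 and 75) and than in Wnt8b cells (56 and 56) changed by over 1.5 times as follows. Thinning gave 171 and 146, and 116 and 158. Totals without mitochondrial and ribosomal protein genes gave 163 and 115, and 93 and 107. A mean of 1 CPM or more gave 460 and 318, and 221 and 304. With no filter on low values they were 605 and 383, and 253 and 357. A 2-fold limit left 34 and 21, and 9 and 16. With at least 2 Fezf2 UMIs, 116 genes were lower than in Six6 cells and 89 than in Wnt8b cells. Comparison cells that held 1 of the 3 genes only gave 114 genes higher and 138 lower than in Wnt8b cells. The study's cell filter, removal of high doublet scores, a limit of 20000 UMIs, weighting cells equally and centring moved no count by over 1.5 times, and the first 3 of these left the share within its interval. No value with a call changed sign; the median of the anterior forebrain list against Wnt8b cells, which has no call, was -0.03 under the UMI limit against 0.11. Of the 39 named genes called higher than in Six6 cells 34 stayed past the limit under all 11 alternatives other than the 2-fold limit, of 21 lower 19, and against Wnt8b cells 14 of 18 and 12 of 14. Among these alternatives, the filter at 1 CPM and the lack of a filter change only which genes are measured. They leave each ratio as it was, so a called gene could not fail them. Depth limits what single cells can show, since 413 Fezf2 cells rest on 1 Fezf2 UMI.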
